A study of Mus musculus with 9 samples.

Results

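Scavenger receptors are the cell surface and lysosomal proteins with which macrophages bind and take up modified lipoproteins, bacterial surface molecules and debris of dead cells. Transcripts of 10 genes that encode such receptors or close relatives of them were followed here: Msr1, Marco, Cd36, Scarb1, Scarb2, Cd68, Olr1, Stab1, Cd163 and Mrc1. They were chosen as a gene family by their symbols, which were matched to 10 of the 55487 gene identifiers in the count lists. That Msr1 moved in opposite directions in the edited lines was known when the genes were listed, so its pattern is a description of these libraries.

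The family is held together by its ligands rather than by a common ancestor. Class A receptors (Msr1, Marco) are collagen-like trimers that bind polyanions such as acetylated low-density lipoprotein and bacterial surface polymers, class B receptors (Cd36, Scarb1, Scarb2) cross the membrane at both ends of the protein, and Cd68 is a heavily glycosylated protein of late endosomes and lysosomes. Olr1 is a C-type lectin-like receptor of oxidized lipoprotein, Stab1 belongs to the stabilins, Cd163 takes up haemoglobin bound to haptoglobin, and Mrc1 is the mannose receptor, often counted with the group because it clears glycoproteins.

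All libraries were made from unstimulated RAW264.7 cells, a mouse macrophage-like line. The 3 genotypes, with 3 libraries each, were wild-type cells, C/EBPδ knock-out cells and ΔTAD cells. C/EBPδ is a transcription factor of the CCAAT/enhancer-binding family. ΔTAD cells are homozygous for an in-frame CRISPR/Cas9 deletion of its transactivation domain at the endogenous locus and therefore keep the DNA-binding end of the protein, whereas knock-out cells carry deletions of the same stretch that shifted the reading frame. The edited cells were single-cell clones picked after sorting and drug selection, and the series description speaks of 3 independent clones. Nothing in the labels says whether the wild-type libraries came from separate clones or cultures, so the p-values below measure only the spread between these libraries, which may be technical. Each edited genotype was compared with wild-type macrophages. Both comparisons share the wild-type libraries. Knock-out was therefore also tested against ΔTAD directly. In all of these comparisons the genotype and the clone cannot be told apart. The paper also proposes that knock-out cells do not reveal the genuine C/EBPδ programme, because other factors may bind in its place.

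Between 16113306 and 20981829 counts fell on genes in a library. Cebpd transcript was at 6.51 ± 0.67 CPM (counts scaled to the library total, with SD, n = 3) in wild-type, 5.44 ± 0.20 CPM in knock-out cells and 5.44 ± 0.67 CPM in ΔTAD cells, and since the deletion leaves most of the transcript in place this level does not check the genotype. All 8 macrophage marker genes (Adgre1, Csf1r, Itgam, Cd14, Lyz2, Fcgr1, Ptprc and Spi1) were detected, with a summed level of 2794 to 2928 CPM in wild-type, 3848 to 4156 CPM in knock-out and 6255 to 6421 CPM in ΔTAD libraries. Most of this rise was Lyz2, the gene of lysozyme, and the other 7 summed to 1695 to 1736 CPM, 1840 to 1876 CPM and 2151 to 2177 CPM in the same order. Of 20 marker genes of other cell types, 10 had no count in any library, among them the T cell gene Cd3e, the epithelial gene Epcam and the fibroblast gene Pdgfra. Other genes of these sets had counts: Cd4, Cd79a, Ly6g, Col1a1, Cdh5 and Krt8 had 13, 6, 2, 10, 20 and 1 over the 9 libraries. S100a8, Zbtb46, Pecam1 and Kdr had enough counts to be tested, with 124 wild-type counts for Pecam1. ΔTAD replicate 1 stood apart from the other 8 libraries: 11.7% of its counts lay on ribosomal RNA genes, against 0.346% to 1.22% elsewhere. Libraries were scaled by TMM, edgeR's trimmed mean of M-values, and results that depend on that library are given with and without it.

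Of the 10 receptor genes, 6 were measured well enough to test and 4 were not. Marco and Cd163 had 0 counts in all 9 libraries. Olr1 had 1 count in a wild-type library and 1 in a ΔTAD library. A floor of 3 counts corresponds to 0.143 to 0.210 CPM in these libraries, so lower levels of these 3 transcripts were not detectable at this depth. Mrc1 was also near the floor, with 1, 2 and 1 counts in wild-type libraries, 2, 0 and 0 in knock-out libraries and 5, 4 and 8 in ΔTAD libraries. The ratio of its scaled counts, 17 against 4, was 4.08 for ΔTAD over wild-type, with an exact 95% interval of 1.33 to 16.7 that covers counting error only. For knock-out over wild-type, 2 counts against 4, the ratio was 0.507 with an interval of 0.0458 to 3.53. The mannose receptor and the haemoglobin receptor, which mark many tissue macrophages, were thus at 0 or near the floor in all genotypes.

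Per kb of exon, the 6 measured receptors fell in one order in all 3 genotypes: Cd68, Cd36, Msr1, Scarb1, Scarb2 and Stab1. In wild-type macrophages Cd68 reached 583 ± 24.6 CPM per kb (SD, n = 3), a level above that of 99.76% of the genes tested. Cd36 followed at 86.5 ± 3.94 and Msr1 at 32.6 ± 0.255 CPM per kb. Scarb1 was at 19.0 ± 0.302, Scarb2 at 9.32 ± 0.330 and Stab1 at 0.603 ± 0.0341 CPM per kb. Neighbours in this order did not overlap between libraries in any genotype, and the order stayed when the length of the longest transcript was used in place of the union of exons. The levels themselves depend on that choice: per kb of the longest transcript, wild-type Msr1 was at 56.8 ± 0.444 and Scarb1 at 52.1 ± 0.830 CPM per kb, much closer to each other. By that length Cd68 alone made up 73.6% of the summed level of the group in wild-type, 72.9% in knock-out cells and 74.4% in ΔTAD cells. By the union of exons its share was 79.7% in wild-type, 77.7% in knock-out cells and 80.2% in ΔTAD cells. The sum itself, with TMM scaling, was 704 to 757 CPM per kb in wild-type libraries, 795 to 853 in knock-out libraries and 839.6 to 874 in ΔTAD libraries. On that scale neither edited genotype overlapped with wild-type. With library size alone as scaling, Cd68, which makes up most of the sum, overlapped between wild-type and both edited genotypes. Its highest wild-type library was then at 622 CPM per kb, and its lowest libraries at 616 in knock-out and 592 in ΔTAD cells.

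**Figure D1:**
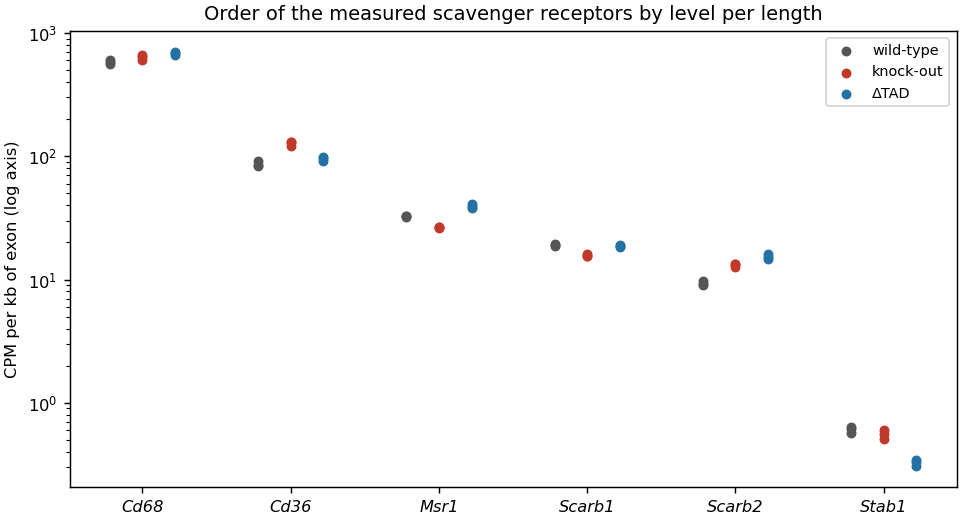
Levels of the 6 measured scavenger receptors in CPM per kb of exon on a log axis, 1 point per library and 3 libraries per genotype. The receptors keep the same order in wild-type, knock-out and ΔTAD macrophages, from Cd68 down to Stab1.

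The 250 bases before the annotated start are shown for the 4 measured receptors that have an entry in the RefSeq promoter table of GRCm38.p6, because 3 of them (Cd36, Scarb2 and Cd68) were higher in both edited genotypes and the fourth (Stab1) was lower in ΔTAD cells. Msr1 and Scarb1 have no entry there. Each sequence is read 5′ to 3′ on the strand of the gene. Capitals mark matches on either strand to TTNNGNAA, a loose form of the palindrome that C/EBP factors bind.
Cd36 (chr5:17835897-17836146, minus strand): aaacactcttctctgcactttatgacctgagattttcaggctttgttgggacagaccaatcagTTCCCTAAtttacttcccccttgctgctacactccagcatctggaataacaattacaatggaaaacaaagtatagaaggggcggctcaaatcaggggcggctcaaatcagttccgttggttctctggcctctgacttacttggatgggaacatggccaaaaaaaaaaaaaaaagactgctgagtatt
Scarb2 (chr5:92505658-92505907, minus strand): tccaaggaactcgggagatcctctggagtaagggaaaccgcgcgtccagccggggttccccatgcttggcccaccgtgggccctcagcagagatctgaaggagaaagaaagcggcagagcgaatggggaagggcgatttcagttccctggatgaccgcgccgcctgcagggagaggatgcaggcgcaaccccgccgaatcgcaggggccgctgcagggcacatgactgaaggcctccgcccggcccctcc
Cd68 (chr11:69666171-69666420, minus strand): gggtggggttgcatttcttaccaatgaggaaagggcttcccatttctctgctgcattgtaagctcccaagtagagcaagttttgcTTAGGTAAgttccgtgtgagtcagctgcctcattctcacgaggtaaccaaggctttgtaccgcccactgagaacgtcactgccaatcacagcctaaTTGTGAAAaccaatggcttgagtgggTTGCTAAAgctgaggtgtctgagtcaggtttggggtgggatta
Stab1 (chr14:31168642-31168891, minus strand): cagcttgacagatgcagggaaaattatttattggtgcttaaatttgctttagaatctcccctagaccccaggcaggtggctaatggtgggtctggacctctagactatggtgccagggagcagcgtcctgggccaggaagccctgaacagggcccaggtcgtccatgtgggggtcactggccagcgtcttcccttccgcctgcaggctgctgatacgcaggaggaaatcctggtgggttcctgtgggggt
In these windows Cd68 held 3 matches to TTNNGNAA and Cd36 held 1, whereas Scarb2 and Stab1 held none. TTNNGNAA occurs within 36.85% of the 32851 promoter windows of the same length. The CCAAT box letters were found 3 times before Cd68 and once each before Cd36 and Stab1, and in 33.85% of all windows. GAGGAA, a sequence of the kind bound by PU.1, was found once before Cd68 and once before Stab1 (23.25% of windows), and TGANTCA, the AP-1 form, was found at 2 places, both before Cd68 (6.75% of windows). CACGTG, the E-box of the MiT factors, was not present in these 4 windows (6.02% of windows). Both strands were searched for each motif, and none of the CCAAT and TTNNGNAA matches overlapped. Scarb2, whose window is also the richest in G and C at 65.6%, was called higher in both edited genotypes and held no match to any of the 5 motifs. The windows of Cd36 and Scarb2 lie inside the annotated genes, whose first annotated base is further upstream, so the sequence before other starts of these genes is not covered. Of the receptors at 0 or near the floor, whose windows are not shown, Marco held 3 matches to TTNNGNAA. Mrc1 and Cd163 held 2 each and Olr1 held 0, with overlapping matches counted. Such matches describe the sequence and do not show that a factor binds there.

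**Figure D2:**
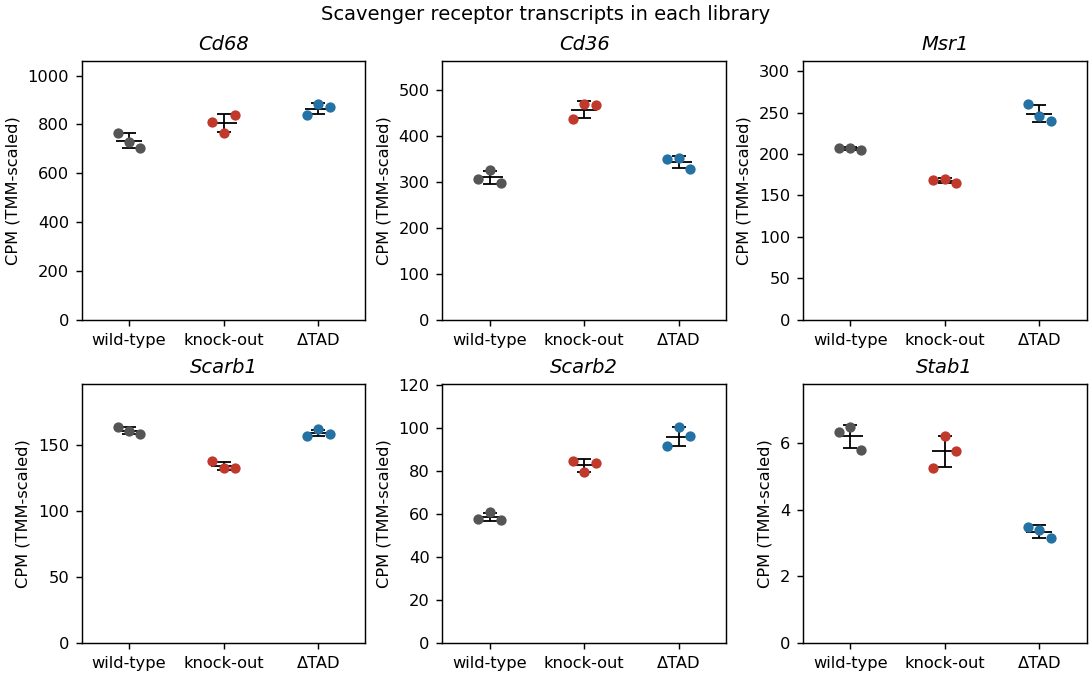
TMM-scaled CPM of the 6 measured receptors by genotype; points are single libraries, and lines give the mean and SD (n = 3). Msr1 lies lowest in knock-out cells and highest in ΔTAD cells, Cd36 highest in knock-out macrophages, and Stab1 lowest in ΔTAD macrophages.

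Msr1 (ENSMUSG00000025044, chr8:39581685-39642673 of GRCm38, minus strand) encodes the class A receptor SR-A, which takes up acetylated lipoprotein. Its level was 208, 208 and 205 CPM in wild-type libraries, 169, 170.1 and 165 CPM in knock-out libraries and 260.0, 246 and 239.9 CPM in ΔTAD libraries. The 3 genotypes did not overlap, with wild-type between the edited cells. In knock-out macrophages Msr1 was 18.8% lower than in wild-type macrophages (log2 fold change −0.30 ± 0.037 SE, edgeR adjusted p = 1.75e-07). In ΔTAD macrophages it was 20.2% higher (0.27 ± 0.036, edgeR adjusted p = 8.35e-07). The direct difference between the edited genotypes was −0.57 ± 0.037 on the log2 scale (edgeR adjusted p = 8.58e-12). Without ΔTAD replicate 1, which had the highest value, the rise in ΔTAD cells was 0.21 on the log2 scale (edgeR adjusted p = 3.63e-06). Over all alternatives the edgeR, DESeq2 or limma adjusted p of this rise lay between 1.74e-13 and 0.0160, the latter with library size alone as scaling, where the call was lost at a log2 fold change of 0.17.

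Cd36 (ENSMUSG00000002944, chr5:17781690-17888801, minus strand) is a class B receptor of oxidized lipoprotein and long-chain fatty acids, and its start region is printed above. It was at 308, 326 and 298 CPM in wild-type, 436, 469 and 467 CPM in knock-out, and 349.9, 352 and 329 CPM in ΔTAD libraries. All knock-out libraries lay well above the rest, and the lowest ΔTAD library lay just above the highest wild-type library. Cd36 rose 1.47-fold in knock-out macrophages (log2 fold change 0.56 ± 0.040 SE, edgeR adjusted p = 1.57e-11). The rise in ΔTAD macrophages was smaller, 1.11-fold (0.14 ± 0.040 on the log2 scale, edgeR adjusted p = 0.00341), and did not pass the threshold of 0.01 without ΔTAD replicate 1 (0.11 on the log2 scale, edgeR adjusted p = 0.0183). It was also lost without ΔTAD replicate 2 (0.12), without wild-type replicate 1 (0.14) and without wild-type replicate 3 (0.12), and over all alternatives its adjusted p from edgeR, DESeq2 or limma lay between 1.47e-05 and 0.508. Knock-out exceeded ΔTAD by 0.41 ± 0.040 on the log2 scale (edgeR adjusted p = 1.31e-08).

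Scarb1 (ENSMUSG00000037936, chr5:125277087-125341094, minus strand) encodes SR-BI, the receptor that exchanges cholesteryl ester with high-density lipoprotein. Its wild-type libraries held 164, 161 and 159 CPM, its knock-out libraries 138, 133 and 133 CPM and its ΔTAD libraries 157, 162 and 159 CPM. Every knock-out library was below every other library, whereas wild-type and ΔTAD overlapped. Scarb1 was 16.5% lower in knock-out macrophages (log2 fold change −0.26 ± 0.034 SE, edgeR adjusted p = 4.78e-07). In ΔTAD macrophages the log2 difference from wild-type was −0.01 ± 0.034 (edgeR adjusted p = 0.734), and the edited genotypes differed by −0.25 ± 0.034 (edgeR adjusted p = 3.06e-06). Gm42633, a transcript of unknown type, overlaps Scarb1 on the same strand with 41 to 82 counts per library, against 2196 to 3381 for Scarb1. The difference between the edited genotypes was not called with library size alone as scaling, at −0.17 for Scarb1 and −0.15 for Scarb2.

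Scarb2 (ENSMUSG00000029426, chr5:92441314-92506833, minus strand) encodes LIMP-2, which carries glucocerebrosidase to the lysosome. Wild-type libraries were at 57.6, 60.9 and 57.2 CPM, knock-out libraries at 84.6, 79.3 and 83.7 CPM and ΔTAD libraries at 91.5, 100.3 and 96.2 CPM. The genotypes were separate and rose in that order. The increase was 1.41-fold in knock-out (log2 fold change 0.50 ± 0.041 SE, edgeR adjusted p = 1.60e-10) and 1.64-fold in ΔTAD macrophages (0.72 ± 0.040, edgeR adjusted p = 8.41e-14). Knock-out was lower than ΔTAD by 0.22 ± 0.038 on the log2 scale (edgeR adjusted p = 5.17e-05). Of the class B receptors, Cd36 was thus higher in knock-out than in ΔTAD cells and Scarb2 higher in ΔTAD than in knock-out cells, and Scarb1 fell in knock-out cells.

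Cd68 (ENSMUSG00000018774, chr11:69664213-69666153, minus strand), the receptor with by far the highest level, was at 765.8, 729 and 704 CPM in wild-type libraries, 811, 765.4 and 839 CPM in knock-out libraries and 839, 883 and 871 CPM in ΔTAD libraries. The lowest knock-out library lay below the highest wild-type library, while the ΔTAD libraries were above both other genotypes. The rise was 9.83% in knock-out macrophages (log2 fold change 0.14 ± 0.036 SE, edgeR adjusted p = 0.00239) and 17.9% in ΔTAD macrophages (0.24 ± 0.036, edgeR adjusted p = 3.32e-06). The call in knock-out was lost without wild-type replicate 3 (0.11) or without knock-out replicate 3 (0.11). With library size alone as scaling, neither rise was called (0.12 and 0.15). Between the edited genotypes the log2 difference was −0.10 ± 0.036 (edgeR adjusted p = 0.0220), which did not pass the threshold. The summed macrophage markers moved in the same direction as Cd68 and Scarb2, with or without Lyz2 as given above. Of the 8 genes, 5 were called higher and 1 lower in knock-out, beside 22.8% and 22.4% of all genes tested. In ΔTAD cells 6 were called higher and 1 lower, beside 26.3% and 23.4%. The part of these markers in the results was not tested, and in bulk RNA more expressing cells and more RNA per cell cannot be told apart.

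Stab1 (ENSMUSG00000042286, chr14:31139013-31168641, minus strand) encodes stabilin-1, a receptor of acetylated lipoprotein and of the matrix protein SPARC, known from tissue macrophages and sinusoidal endothelium. It was the weakest of the measured receptors, with 127, 112 and 96 counts in wild-type, at least 100 counts in each knock-out library and 50, 71 and 66 counts in ΔTAD libraries. On the CPM scale these were 6.33, 6.48 and 5.81 in wild-type, 5.27, 6.22 and 5.78 in knock-out, and 3.50, 3.41 and 3.14 in ΔTAD macrophages. Wild-type and knock-out overlapped, and ΔTAD lay below both. Stab1 was 1.86-fold lower in ΔTAD than in wild-type macrophages (log2 fold change −0.90 ± 0.13 SE, edgeR adjusted p = 2.42e-06), the largest difference among the measured receptors. Knock-out against wild-type gave −0.12 ± 0.12 (edgeR adjusted p = 0.443) and knock-out against ΔTAD 0.78 ± 0.13 (edgeR adjusted p = 4.63e-05). The span of Nt5dc2 overlaps that of Stab1 on the opposite strand, and Nt5dc2, with 220 to 684 counts per library, fell too, by 1.15 on the log2 scale in ΔTAD (edgeR adjusted p = 5.24e-14) and by 0.36 in knock-out macrophages (edgeR adjusted p = 8.08e-06). The strand setting of the counting is not given in the sources used here, so reads of the 2 genes cannot be told apart with certainty. The 20 marker genes of other cell types also fell in sum, from 4.75 to 6.58 CPM in wild-type to 2.95 to 3.80 CPM in knock-out and 1.82 to 2.76 CPM in ΔTAD libraries, with 12, 10 and 12 of the 20 at 0 counts in these groups. Over all genes tested, 22.4% were called lower in knock-out and 23.4% in ΔTAD cells. Of the 4 markers that could be tested, 2 were called lower in each edited genotype. One of them was the endothelial gene Pecam1, at 2.29 ± 0.34 CPM in wild-type, 0.581 ± 0.098 CPM in knock-out cells and 0.166 ± 0.038 CPM in ΔTAD cells (SD, n = 3). The part of these markers in the Stab1 result was not tested.

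**Figure D3:**
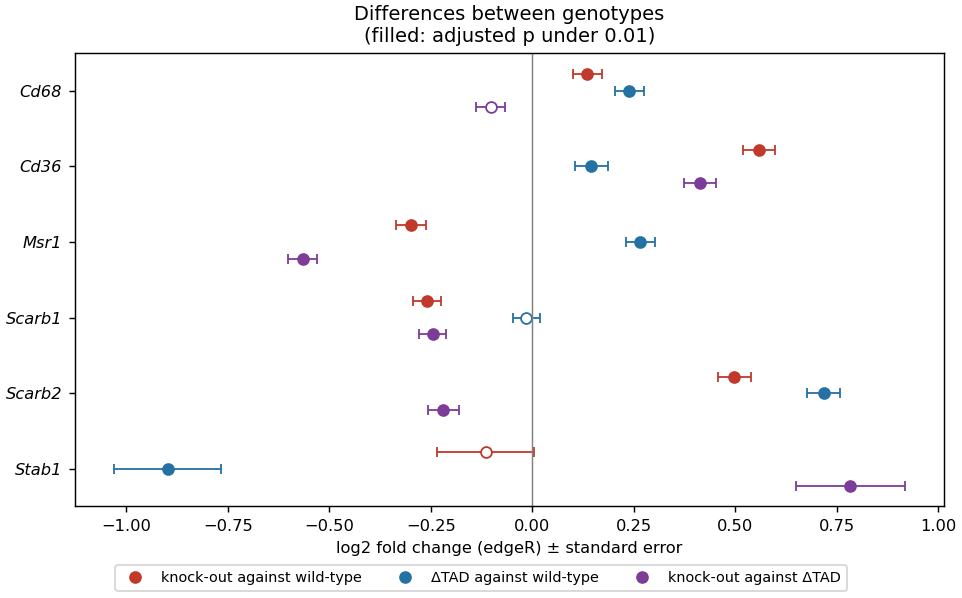
Log2 fold changes of the 6 measured receptors from edgeR with standard errors, for each edited genotype against wild-type and for knock-out against ΔTAD. Filled points passed an adjusted p of 0.01; Msr1 lies at −0.30 in knock-out cells and 0.27 in ΔTAD cells, and Stab1 at −0.90 in ΔTAD macrophages.

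The 6 tested receptors did not move together. In knock-out macrophages 3 of 6 were called higher (Cd36, Cd68 and Scarb2) and 2 lower (Msr1 and Scarb1), where 22.8% of the 14312 genes tested were called higher and 22.4% lower. In ΔTAD macrophages 4 of 6 were called higher (Cd36, Cd68, Msr1 and Scarb2) and 1 lower (Stab1), where 26.3% of all genes tested were higher and 23.4% lower. In knock-out against ΔTAD macrophages 2 of 6 were higher (Cd36 and Stab1) and 3 lower (Msr1, Scarb1 and Scarb2), beside 13.9% and 19.1% of all genes tested. The libraries did not overlap for 4, 5 and 6 of the 6 receptors in the 3 comparisons, and for 59.7%, 63.1% and 52.8% of all genes tested. The median log2 fold change of the receptors was 0.01 in knock-out, 0.19 in ΔTAD and −0.16 in knock-out against ΔTAD, and their median size regardless of sign was 0.28, 0.25 and 0.33, beside 0.24, 0.27 and 0.18 over all genes tested. Cd36, Cd68 and Scarb2 moved in the same direction in both edited genotypes. Of all genes tested, 81 (0.566%) were called lower in knock-out cells and higher in ΔTAD cells, as Msr1 was, and 99 (0.692%) the reverse.

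Ratios within a library do not depend on how libraries are scaled, and they show how the make-up of the receptor transcripts shifted. For every 100 Msr1 counts there were 148, 157 and 146 Cd36 counts in wild-type libraries, 259, 276 and 283 in knock-out libraries and 135, 143 and 137 in ΔTAD libraries, so the knock-out libraries stood apart with more Cd36 for each Msr1 transcript. Against Cd68, Msr1 was at 27.1, 28.5 and 29.1 per 100 counts in wild-type, 20.8, 22.2 and 19.7 in knock-out and 31.0, 27.9 and 27.5 in ΔTAD libraries. The knock-out libraries were low by this measure as well, while ΔTAD and wild-type libraries overlapped, as both transcripts were higher in ΔTAD cells. Cd36 per 100 Cd68 counts likewise overlapped between wild-type (40.2 to 44.8) and ΔTAD (37.8 to 41.7) and was 53.8 to 61.3 in knock-out libraries. Scarb2 per 100 Cd68 counts was 7.52 to 8.36 in wild-type, 9.98 to 10.4 in knock-out and 10.9 to 11.4 in ΔTAD libraries. Scarb1 per 100 Scarb2 counts was 264 to 284 in wild-type, and at 159 to 167 and 162 to 172 it was lower in knock-out and ΔTAD libraries, which overlapped with each other. Edited cells of either kind thus held more LIMP-2 transcript for each SR-BI transcript than wild-type cells.

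**Figure D4:**
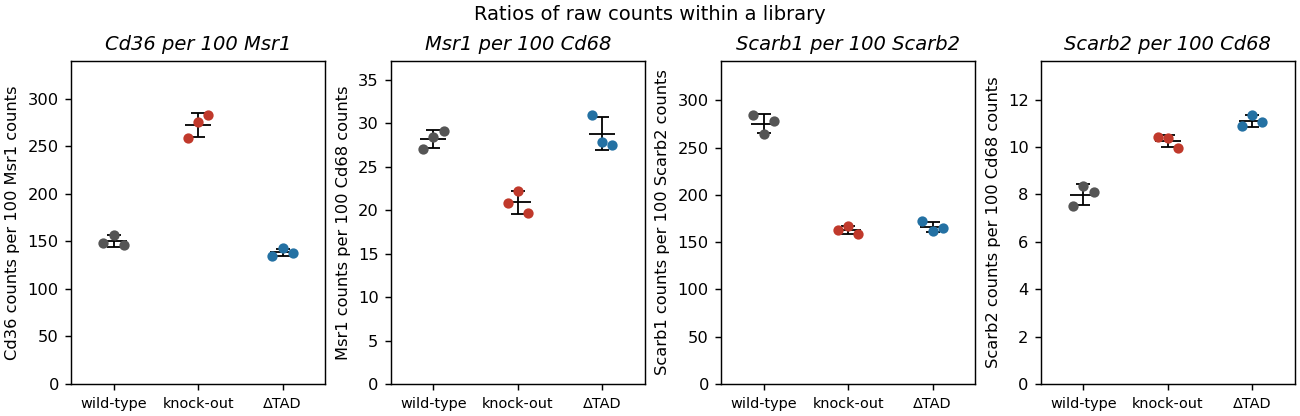
Raw counts of one receptor per 100 counts of another in the same library, by genotype; points are libraries, and lines give the mean and SD (n = 3). Cd36 per 100 Msr1 counts is 259 to 283 in knock-out libraries and 135 to 157 in the others, whereas Msr1 per 100 Cd68 counts overlaps between wild-type and ΔTAD libraries.

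Since the edited cells were clones, the genes beside each receptor were also read. Each measured receptor was set against the 20 tested genes next to it, 10 on either side. Around Msr1 the median log2 fold change of the neighbours was 0.08 in knock-out cells and 0.10 in ΔTAD cells, and Msr1 itself lay below their lower quartile in knock-out and between their quartiles in ΔTAD cells. Around Stab1 the neighbours, which include Nt5dc2 on the opposite strand, had medians of −0.04 and 0.02, with Stab1 at −0.90 in ΔTAD cells. Around Scarb1, 8 of 20 neighbours were called lower and 2 higher in knock-out macrophages, with a median of −0.20 beside −0.26 for Scarb1. Over all genes tested, 22.4% were lower and 22.8% higher there. In knock-out against ΔTAD, 9 of 20 were called lower and 0 higher by edgeR, beside 19.1% and 13.9% of all genes tested. In ΔTAD macrophages the same neighbours had a median of −0.15, while Scarb1 was at −0.01 and not called. There 7 neighbours were called lower and 5 higher, beside 23.4% and 26.3% of all genes tested. Around Scarb2, 7 neighbours were called lower and 7 higher in knock-out macrophages, and around Cd68 7 lower and 6 higher. The median over the chromosome of Scarb1 was 0.01 in knock-out macrophages. Neighbours of Cd36 and Scarb2 in knock-out macrophages had medians of −0.04 and 0.15, beside 0.56 and 0.50 for the receptors, although the upper quartile around Cd36 was 0.55 and that around Scarb2 was 0.74. Whether the region around Scarb1 changed as a whole in these clones was not tested.

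**Figure D5:**
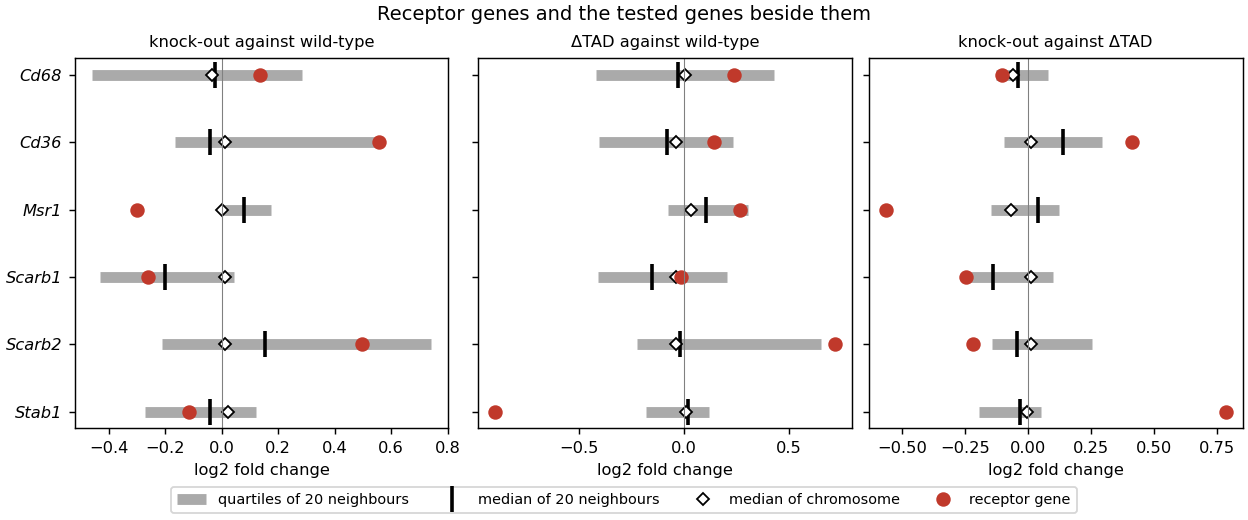
Log2 fold change of each receptor (circle) beside the quartiles (bar) and median (tick) of the 20 nearest tested genes and the median of its chromosome (diamond), for the 3 comparisons. Msr1 in knock-out macrophages and Stab1 in ΔTAD macrophages lie outside the quartiles of their neighbours, and Scarb1 lies within them in both comparisons with wild-type.

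Among the 5 genes whose profile over the 9 libraries was nearest to that of Msr1, out of 12719 genes whose mean reached 1 CPM, were Rnpep, Mapkapk2, Nectin1 and Rpusd4. The measure was the root mean square difference of centred log2 CPM, from 0.0468 for Rnpep to 0.0645 for Rpusd4. Rnpep, an aminopeptidase, was at 123 CPM in wild-type, 101.6 CPM in knock-out cells and 145 CPM in ΔTAD cells (means of 3 libraries). Mapkapk2, the kinase MK2 downstream of p38, was at 333 CPM, 284 CPM and 432 CPM in the same order. These genes were picked by their likeness to Msr1, and no test was made on them.

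Of further scavenger receptors listed outside the 10 genes, most of those that could be tested were higher in edited cells. Of 16 listed, 7 could be tested, and 5 were called higher and 1 lower in knock-out, 4 higher and 1 lower in ΔTAD macrophages. Their median log2 fold changes were 0.54 and 0.72. For this list and those below, the shares over all genes tested remain 22.8% higher and 22.4% lower in knock-out and 26.3% and 23.4% in ΔTAD. These lists were chosen with earlier results of these data known, so their counts are a description only. Cxcl16, the receptor of oxidized lipoprotein and phosphatidylserine that is also a chemokine, rose from 0.513 ± 0.124 CPM in wild-type to 9.93 ± 1.10 CPM in knock-out cells and 13.0 ± 0.427 CPM in ΔTAD cells (SD, n = 3), a log2 fold change of 4.24 in knock-out (edgeR adjusted p = 1.03e-15) and 4.62 in ΔTAD (edgeR adjusted p = 4.47e-17). Lrp1, a large endocytic receptor, rose from 1361 ± 59.4 CPM to 1984 ± 73.1 CPM and 2238 ± 88.0 CPM. Cd5l, a soluble scavenger protein made by macrophages, fell from 5.82 ± 0.645 CPM to 2.63 ± 0.267 CPM and 3.30 ± 0.259 CPM. Of the 3 genes named here, Cxcl16 and Lrp1 were thus higher in ΔTAD than in knock-out cells, with log2 differences of knock-out from ΔTAD of −0.39 (edgeR adjusted p = 0.00186) and −0.17 (edgeR adjusted p = 0.000101), whereas the difference for Cd5l, −0.34, did not pass (edgeR adjusted p = 0.0998).

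Receptors of apoptotic cells and the proteins that bridge to them went both ways. Of 13 listed, 8 could be tested, and 2 were called higher and 3 lower in knock-out macrophages, with 3 higher and 3 lower in ΔTAD macrophages. Tyro3, a receptor tyrosine kinase of the TAM group, fell from 5.54 ± 1.02 CPM in wild-type to 0.636 ± 0.263 CPM in knock-out cells and 1.23 ± 0.269 CPM in ΔTAD cells (log2 fold changes −3.11, edgeR adjusted p = 8.90e-11, and −2.21, edgeR adjusted p = 2.86e-09). Mfge8, which bridges phosphatidylserine to integrins, fell from 101.7 ± 3.18 CPM to 67.0 ± 0.866 CPM and 73.0 ± 3.01 CPM. Itgav, an integrin subunit with which Mfge8 is bound, rose in knock-out cells, from 88.3 ± 3.84 CPM to 97.5 ± 2.62 CPM, and was at 92.0 ± 5.29 CPM in ΔTAD cells, where it did not pass. Its partner Itgb5 was at 19.0 ± 0.407 CPM and 18.4 ± 0.635 CPM in wild-type and knock-out cells and rose to 30.5 ± 1.25 CPM in ΔTAD macrophages. Havcr2 rose from 42.3 ± 2.53 CPM to 47.0 ± 0.893 CPM in knock-out cells and 64.0 ± 1.10 CPM in ΔTAD cells. Its rise in knock-out cells was close to the threshold of 0.01 (edgeR adjusted p = 0.00939). Directly compared, 5 of the 8 were lower in knock-out than in ΔTAD cells and 0 higher by edgeR, beside 19.1% and 13.9% of all genes tested. The number called in knock-out against wild-type was 3 in place of 5 without wild-type replicate 1 or without knock-out replicate 2. It was 4 when any other library was left out. In knock-out against ΔTAD the number was 3 in place of 5 without knock-out replicate 1 or without knock-out replicate 2. The other TAM kinases, Axl and Mertk, had 18 and 3 counts over all 9 libraries.

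Genes that handle lipid after uptake were changed in 13 of 17 cases in knock-out macrophages, 9 higher and 4 lower, and in 15 of 17 cases in ΔTAD macrophages, 11 higher and 4 lower, of 19 listed. The median log2 fold changes were 0.16 and 0.36. Abca1, the efflux pump that loads apolipoprotein A-I with cholesterol, rose from 17.5 ± 2.19 CPM in wild-type to 75.1 ± 3.32 CPM in knock-out cells and 142 ± 6.99 CPM in ΔTAD cells (log2 fold changes 2.11, edgeR adjusted p = 4.90e-19, and 3.02, edgeR adjusted p = 7.43e-23). Its counterpart for high-density lipoprotein, Abcg1, rose from 62.0 ± 2.90 CPM to 165 ± 12.7 CPM and 204 ± 16.0 CPM. Fabp4, a fatty acid carrier, fell from 9.32 ± 0.282 CPM to 3.10 ± 0.332 CPM and 2.03 ± 0.321 CPM. Soat1, which esterifies cholesterol, fell from 593 ± 7.87 CPM to 510.4 ± 7.58 CPM and 481 ± 14.6 CPM. Dgat2, an enzyme of triglyceride synthesis, was called lower in both edited genotypes as well, at 1.92 ± 0.408 CPM, 0.661 ± 0.168 CPM and 0.696 ± 0.183 CPM.

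Partners that signal with the receptors or cut them from the surface were called in 15 of 20 cases in knock-out macrophages, 12 higher and 3 lower, and in 14 of 20 cases in ΔTAD macrophages, 11 higher and 3 lower, of 21 listed. Cd9, a tetraspanin found in complexes with CD36, rose in knock-out macrophages from 219 ± 7.68 CPM to 432 ± 18.7 CPM (log2 fold change 0.98, edgeR adjusted p = 1.38e-16) and in ΔTAD macrophages to 248 ± 3.23 CPM (0.18, edgeR adjusted p = 0.000322). Cd9 and Cd36 were thus both higher in knock-out than in ΔTAD cells, Cd9 by 0.80 on the log2 scale (edgeR adjusted p = 2.79e-14). Src rose from 14.3 ± 0.412 CPM to 31.6 ± 0.931 CPM in knock-out and 20.5 ± 0.590 CPM in ΔTAD cells. Lyn, a Src family kinase that has been found with CD36, fell from 174 ± 2.00 CPM to 153 ± 3.43 CPM and 153 ± 2.55 CPM. Tlr2, which CD36 assists in sensing diacylated lipopeptides, rose from 121 ± 5.57 CPM to 192 ± 4.81 CPM and 232 ± 11.7 CPM. Cav2, a caveolin, rose from 0.709 ± 0.0543 CPM to 6.36 ± 0.540 CPM and 7.13 ± 0.505 CPM. Adam17, a sheddase of many surface proteins, fell in knock-out macrophages from 372 ± 1.81 CPM to 325 ± 7.59 CPM and was at 375 ± 9.32 CPM in ΔTAD macrophages. Hmox1, which breaks down haem, was at 326 ± 14.4 CPM in wild-type and 313 ± 2.76 CPM in knock-out cells and fell to 256 ± 8.88 CPM in ΔTAD cells, and the kinase gene Ptk2b was at 267 ± 8.95 CPM and 267 ± 4.89 CPM and fell to 227 ± 8.50 CPM.

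Transcription factors known to act on macrophage receptor genes or lysosomal genes were called in 12 of 19 cases in knock-out macrophages, 10 higher and 2 lower, and in 14 of 19 cases in ΔTAD macrophages, 11 higher and 3 lower, of 21 listed. Cebpa, a relative of Cebpd, rose from 3.04 ± 0.857 CPM in wild-type to 15.9 ± 1.54 CPM in knock-out cells and 12.4 ± 0.496 CPM in ΔTAD cells (log2 fold changes 2.40, edgeR adjusted p = 1.25e-13, and 2.05, edgeR adjusted p = 4.41e-12). Spi1, which encodes PU.1, rose from 117 ± 4.96 CPM to 143 ± 2.57 CPM and 203 ± 6.16 CPM. Mitf and Tfec, members of the MiT family, rose from 61.8 ± 3.43 CPM to 121 ± 3.57 CPM and 85.1 ± 1.50 CPM, and from 0.245 ± 0.0529 CPM to 6.58 ± 1.17 CPM and 11.6 ± 1.30 CPM. Ets2 fell from 123 ± 0.855 CPM to 86.4 ± 2.13 CPM and 54.4 ± 2.85 CPM. Irf4 was at 4.91 ± 0.495 CPM and 4.20 ± 0.451 CPM in wild-type and knock-out cells and fell to 2.18 ± 0.143 CPM in ΔTAD cells. Pparg, the nuclear receptor through which Cd36 is often induced, had 17 counts over the 9 libraries, too few to be tested. Wild-type libraries held 1 of these counts, knock-out libraries 7 and ΔTAD libraries 9. The part of Pparg in the Cd36 level or its differences was not tested.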

How the data were processed

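RNA of unstimulated RAW264.7 cells was sequenced after ribosomal RNA depletion in 9 libraries. The authors trimmed reads with Trimmomatic, aligned them with HISAT2 to GRCm38 and deposited raw HTSeq counts per Ensembl gene, with neither normalization nor filter. The submitters' processing notes give Trimmomatic 0.36 and HISAT2 2.3.4.3, whereas the paper's methods name other versions of both tools. The mode and strand setting of the counting are not given in the sources used here. The 5 tally lines (46.8% to 53.3% of the records of a library) were left out.

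Genotypes were taken from the genotype labels and replicate numbers (1 to 3) from the donor labels. The titles number the last library 4 in wild-type and 5 in the edited genotypes. Symbols, positions and exon lengths came from GENCODE M21 (GRCm38) and matched 55141 of 55487 identifiers. Promoter sequences came from RefSeq (GRCm38.p6). Counts were tested with edgeR 4.0.16 in R 4.3.3: filterByExpr (minimum count 10, minimum total count 15) kept 14312 genes, libraries were scaled by TMM (factors 0.888 to 1.027), and 1 quasi-likelihood model with a mean per genotype was fitted to all 9 libraries. Genes with a Benjamini-Hochberg adjusted p under 0.01 over all genes tested were called. "edgeR adjusted p" means this test throughout. CPM are TMM-scaled, and ± gives the SD between libraries unless named as a standard error (SE). The scripts were tested on simulated counts. DESeq2 1.42.0, voom from limma 3.58.1, other scalings and filters, and leaving out each library served as alternatives. No pair of libraries within a genotype was alike within sampling noise.

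The receptor genes and gene lists were chosen with earlier results of these data known. From each list were named the 2 genes with the smallest adjusted p called higher and the 2 called lower in each comparison with wild-type, among those that reached a mean of 1 CPM in a genotype. Pecam1, Kdr, S100a8, Zbtb46, Lyz2, Dgat2, Nt5dc2 and Gm42633, and list genes given only by their total counts, were named outside this rule, after their values were seen. Some genes that this rule would name are not reported here.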

Additional observations from a re-analysis of the deposited data

Results flagged for a closer look

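For 5 receptors knock-out and ΔTAD macrophages differed by the direct test (edgeR, adjusted p under 0.01). All 3 libraries of each genotype lay apart from all 3 of the other, as they did for 52.8% of all genes tested. Over all genes tested, 13.9% were called higher and 19.1% lower in knock-out against ΔTAD macrophages. Because the edited cells were clones, genotype and clone cannot be told apart in these differences. The log2 difference of knock-out from ΔTAD was 0.41 for Cd36, which rose in both genotypes and more in knock-out cells. It was −0.57 for Msr1, which fell in knock-out and rose in ΔTAD cells. Scarb2, at −0.22, rose in both and more in ΔTAD cells. The value for Scarb1 was −0.25, with a fall in knock-out cells and no call in ΔTAD cells. Stab1, at 0.78, fell in ΔTAD cells and was not called in knock-out cells, and the overlapping gene Nt5dc2 had a log2 difference of 0.79.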

How the results depend on the processing

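Log2 fold changes of the receptors kept their direction and call in 168 of 180 values under other tools, scalings, filters and thresholds, and in 156 of 162 values with 1 library left out. With library size alone in place of TMM, which lowered the median of all genes in ΔTAD against wild-type macrophages by 0.085 on the log2 scale, 1 receptor instead of 4 was called higher in ΔTAD and 1 instead of 3 lower in knock-out against ΔTAD. Under that scaling Cd36 (0.055), Cd68 (0.15) and Msr1 (0.17) in ΔTAD, Cd68 in knock-out (0.12), and Scarb2 (−0.15) and Scarb1 (−0.17) in knock-out against ΔTAD were no longer called. When ribosomal RNA genes were first taken out of the library size, an alternative chosen after seeing the data, 3 receptors were higher in ΔTAD and 3 lower in knock-out against ΔTAD, with Cd36 in ΔTAD at 0.12 (edgeR adjusted p = 0.0112). Cd36 in ΔTAD also lost its call with at least 10 counts in every library (0.13), and over all alternatives it ranged from 0.055 to 0.18. Cd68 in knock-out against ΔTAD was called by limma-voom (−0.10), when every gene with at least 1 count was kept (−0.12) and at an adjusted p of 0.05. Scarb1 in ΔTAD against wild-type, not called in any alternative, changed sign to 0.007 when every gene with at least 1 count was kept, and the cause was not tested. Libraries that share a donor number in the labels did not deviate together (9 correlations from −0.072 to 0.020; the titles number the last wild-type library differently from the others), and with the replicate block the counts of called receptors were the same, 3 higher and 2 lower in knock-out and 4 higher and 1 lower in ΔTAD macrophages. Of the apoptotic cell receptors, 3 in place of 5 were called in knock-out by DESeq2 and with library size alone, and 2 with at least 10 counts in every library. By limma-voom, with the replicate block and with only the 2 genotypes compared, 4 of them were called. The depth limits Mrc1, Olr1, Marco and Cd163 (3 counts or fewer in most libraries).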
